A study of Mus musculus with 12 samples.

Results

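A set of 10 genes of ketone body use and branched-chain amino acid breakdown was followed in the left ventricle of mice with pressure overload, infarction or angiotensin II infusion. They are the 3 ketone genes Bdh1, Oxct1 and Acat1 and the 7 amino acid genes Bcat2, Bckdha, Bckdhb, Dbt, Mmut, Aldh6a1 and Hibadh. The genes were chosen by name, with earlier results of these data known. Each is represented by its brightest probe set, with its other probe sets as a check. All 10 were found among the named probe sets and passed the filter on dim genes, out of 11624 genes tested.

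Total RNA of the left ventricle of Balb/c mice aged 6 to 8 weeks was hybridised to 12 Affymetrix arrays, 1 array for each group. The procedure groups were transverse aortic constriction (TAC, a narrowing of the aorta against which the ventricle must pump) at 1 day, 1 week and 1 month, coronary ligation (MI) at 1 week and 1 month, and angiotensin II (Ang II, given by minipump at 2 mg/kg/day) at 1 week. Each had a control array of the same series and time, a sham operation for TAC and MI and a vehicle infusion for Ang II, which gave 6 pairs. The series text places the 1 day harvest in the MI model and describes an artery reopened after 30 min, but the labels of the arrays, which were used here, give 1 day to TAC and name only a ligation. No label states whether an array holds RNA of 1 animal or of a pool, so it is not known whether the p-values rest on differences between single animals. The spread behind them is that between pairs, which differ in procedure and time. The deposited values are linear signals, scaled here to a common trimmed mean, and differences are log2 ratios of procedure to control, so that a negative value stands for a lower signal after the procedure. The 3' to 5' signal ratios of actin and Gapdh, which measure RNA integrity, lay between 1.18 and 1.33 and between 0.790 and 0.854 over all arrays.

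The heart oxidises mainly fatty acids, but it also takes up ketone bodies and amino acids. In the mitochondrion, 3-hydroxybutyrate is oxidised to acetoacetate by Bdh1, activated to acetoacetyl-CoA by Oxct1, and split into acetyl-CoA by Acat1, which also serves the last step of isoleucine breakdown. Leucine, isoleucine and valine lose their amino group to Bcat2, and the resulting keto acids are committed to oxidation by the branched-chain keto acid dehydrogenase complex, whose E1 part is made of Bckdha and Bckdhb and whose E2 core is Dbt. Hibadh and Aldh6a1 act further along the valine path, and Mmut converts methylmalonyl-CoA into succinyl-CoA, which enters the TCA cycle.

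Promoter sequences from RefSeq (GRCm38.p6) were at hand for 7 of the 10 genes, Bdh1, Oxct1, Bcat2, Bckdha, Bckdhb, Aldh6a1 and Hibadh. The 250 bases before the start site are printed for 4 of them: Bdh1, whose values differed most from those of the other genes, the 2 E1 subunits, whose mean changes were nearly equal, and Aldh6a1 of the valine path. Capitals mark the GC box GGGCGG on either strand. Bdh1 is at chr16:31422047-31422296 (plus strand), Bckdha at chr7:25658762-25659011 (minus strand), Bckdhb at chr9:83924887-83925136 (plus strand) and Aldh6a1 at chr12:84451025-84451274 (minus strand).
Bdh1: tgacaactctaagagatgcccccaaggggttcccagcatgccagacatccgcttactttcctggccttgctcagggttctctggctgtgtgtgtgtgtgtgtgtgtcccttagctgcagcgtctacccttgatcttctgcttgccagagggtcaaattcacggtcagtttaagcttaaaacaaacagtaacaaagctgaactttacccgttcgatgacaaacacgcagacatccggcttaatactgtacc
Bckdha: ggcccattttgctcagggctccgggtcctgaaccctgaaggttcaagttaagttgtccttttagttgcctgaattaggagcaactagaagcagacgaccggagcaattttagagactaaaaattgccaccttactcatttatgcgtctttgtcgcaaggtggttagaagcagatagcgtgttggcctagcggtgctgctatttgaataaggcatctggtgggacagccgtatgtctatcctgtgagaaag
Bckdhb: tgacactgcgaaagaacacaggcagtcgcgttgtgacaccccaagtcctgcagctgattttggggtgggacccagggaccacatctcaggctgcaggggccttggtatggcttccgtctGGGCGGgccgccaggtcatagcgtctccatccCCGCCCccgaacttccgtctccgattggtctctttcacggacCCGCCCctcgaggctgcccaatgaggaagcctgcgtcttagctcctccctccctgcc
Aldh6a1: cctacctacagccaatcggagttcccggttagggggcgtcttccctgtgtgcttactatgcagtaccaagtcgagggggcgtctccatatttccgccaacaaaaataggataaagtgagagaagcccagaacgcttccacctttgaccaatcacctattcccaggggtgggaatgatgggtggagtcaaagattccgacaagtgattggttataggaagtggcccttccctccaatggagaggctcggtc

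The E1 subunit genes, which moved side by side in the data, did not share this feature: Bckdhb held 3 GC boxes, at 131, 99 and 57 bases before the start, and Bckdha held 0. Hibadh held 2, and the other 4 genes with a promoter sequence held 0. Over 17492 promoters of protein-coding genes 42.7% held a GC box, against 2 of the 7 members. The oestrogen-related receptor motif AAGGTCA, the NRF1 core GCGCATG and the TATA motif TATAAA, each searched on both strands, were found in 0 of the 7, and in 3.55%, 4% and 12.4% of all promoters. A match is a description of letters, and its absence from this window says nothing of a factor. The GC content of the 7 windows ran from 47.6% to 63.2%, with a median of 55.2% over all promoters.

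**Figure D1:**
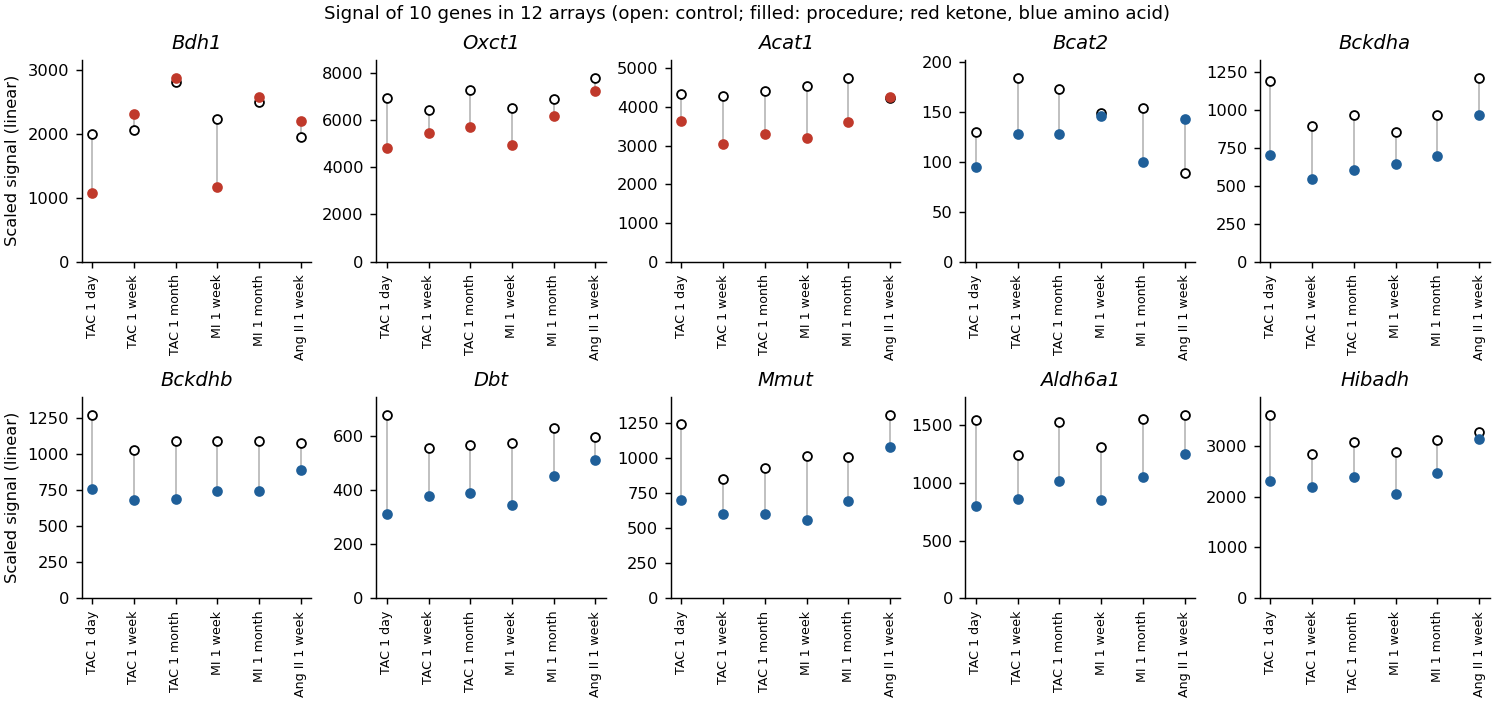
Scaled linear signal (y axis, from 0) of each gene in the 6 pairs (x axis); open points are control arrays, filled points procedure arrays (red for ketone genes, blue for amino acid genes), 1 array each, with no error bars because no group has a replicate. All procedure arrays of Bckdhb and Dbt lie below all control arrays, whereas Bdh1 is far below its control only in TAC 1 day (1069 against 2000) and MI 1 week (1169 against 2227).

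Over the mean of the 6 pairs, 8 of the 10 genes fell and 0 rose, against 5.70% of all tested genes lower and 5.16% higher by the same rule (limma's paired fit, Benjamini-Hochberg adjusted p under 0.05 over all 11624 genes). The 3 genes of the keto acid dehydrogenase complex, Mmut and Aldh6a1 changed by -0.56 to -0.61 on the log2 scale, that is by -32.1% to -34.6%. Hibadh, Acat1 and Oxct1 fell by 0.38, 0.34 and 0.29. Bdh1 and Bcat2, the first enzymes of the ketone and the amino acid path, did not pass, with -0.24 ± 0.16 (adjusted p = 0.364) and -0.23 ± 0.17 (adjusted p = 0.391; SE of limma's fit over 6 pairs for all such values). Bdh1 was at -0.10 without the TAC 1 day pair and at -0.099 without MI 1 week, and Bcat2 was at -0.41 without Ang II (adjusted p = 0.0517) and at -0.15 without MI 1 month. The median of the 10 genes was -0.47, and that of all tested genes -0.0038. With signals as deposited 5 of the 10 fell, where 108 genes of the table were lower and 692 higher, in place of 662 lower and 600 higher with scaled signals. The same 3 genes, Oxct1, Acat1 and Hibadh, lost their call there, and also when any of the TAC or MI pairs at 1 week or 1 month was left out, which left 5 called each time, with 0.748% to 1.04% of all tested genes lower. In limma without variance moderation, or without the filter on dim genes, 0 of the 10 and 0 of all tested genes passed. In a bulk ventricle, fewer cells of a type and less RNA per cell cannot be told apart.

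Signals of 7 of the 10 genes were lower than the control in all 6 pairs, which was so for 10.7% of tested genes. After quantile normalization Oxct1 was not among them. With the mean of all probe sets Mmut was not, since its Ang II ratio was then 0.28. That mean includes its dimmest probe set, at the floor on 5 arrays. For 8 of the 10, at least 5 of the 6 procedure arrays lay below all 6 controls, against 6.77% of tested genes. For Bckdhb and Dbt all 6 did, against 1.37% of tested genes. A sign-flip test over the 6 pairs gave each of the 7 genes with 1 direction an exact two-sided p = 0.03125, unadjusted, the smallest that 64 sign patterns can give. Acat1 had 0.0625, Bcat2 0.344 and Bdh1 0.5 in this exact test.

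**Figure D2:**
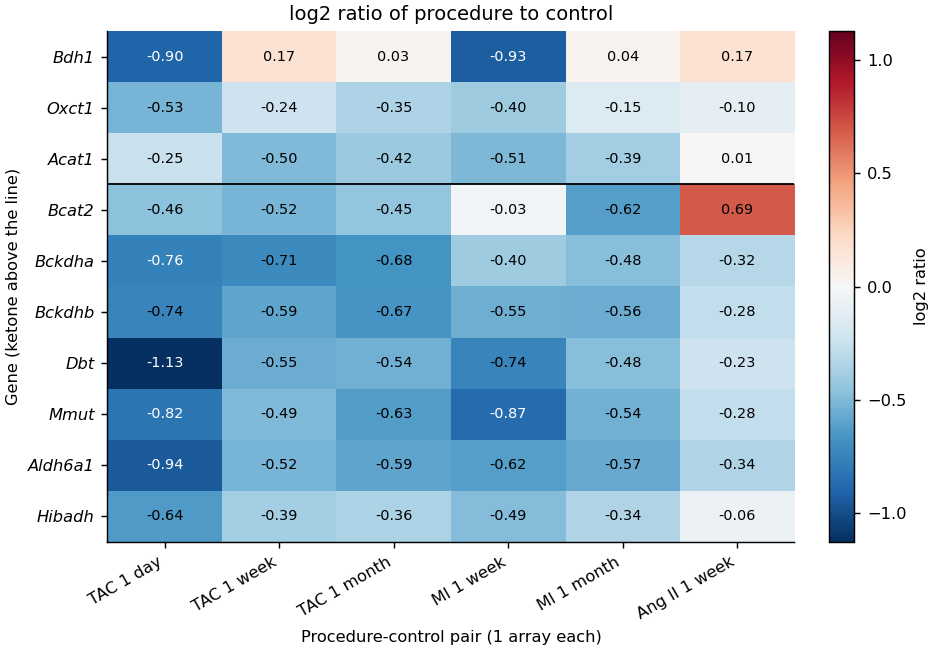
Log2 ratio of procedure to control for each gene (rows, ketone genes above the line) in each pair (columns), with blue for lower and red for higher; each cell is 1 array against 1 array. The 6 amino acid genes below Bcat2 are lower in every column, while Bdh1 is close to 0 or positive in 4 columns.

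Among the ketone genes, Bdh1, the 3-hydroxybutyrate dehydrogenase that opens the path, had the widest spread between pairs. Its scaled signal was 1069 in TAC 1 day against 2000 in the sham, and 1169 in MI 1 week against 2227. It was 2316 in TAC 1 week against 2055, 2870 in TAC 1 month against 2815, 2571 in MI 1 month against 2504, and 2195 with Ang II against 1949. The TAC 1 day and MI 1 week arrays thus lay below all 6 controls, whose range was 1949 to 2815, the TAC 1 month array lay just above it (as did 19.3% of tested genes), and the other 3 procedure arrays lay inside it. The log2 ratios were -0.90 and -0.93 in the first of these pairs, and 0.17, 0.028, 0.038 and 0.17 in the other 4, while controls of the same time differed by up to 0.19. The dimmer Bdh1 probe set had -1.41 in TAC 1 day and -1.23 in MI 1 week, and between -0.16 and 0.16 in the other 4 pairs. It was on the other side of 0 from the brighter one in TAC 1 week (-0.030) and MI 1 month (-0.16), so a rise of Bdh1 in these pairs was not shared by both probe sets.

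The pairs in which Bdh1 was low also had the highest median ratios of macrophage markers, though not the highest ratio of each marker. The median log2 ratio of 11 such markers was 1.37 in TAC 1 day and 1.11 in MI 1 week, 0.86 in MI 1 month, 0.42 in TAC 1 month, 0.22 in TAC 1 week and 0.13 with Ang II, where the largest difference between controls was 0.99. Adgre1 (0.33 against 0.86), Csf1r, C1qa, C1qb and C1qc were lower in TAC 1 day than in MI 1 month. Cd68, Cd14, Lgals3, Fcgr1, Mrc1 and Ccr2 were higher there. Fcgr1 was lower in MI 1 week (0.81) than in MI 1 month (1.00) and with Ang II (1.37). Of these 11 markers, all measured and none at the floor on all arrays, 8 rose over the 6 pairs (limma, adjusted). Their summed signal ran from 2714 to 4730 in controls and from 3037 to 10467 in procedure arrays. TAC 1 day and MI 1 week were also highest in the medians of 2 neutrophil markers (3.29 and 2.63, at most 1.63 elsewhere, and up to 3.58 between controls). They were highest too in those of 4 smooth muscle markers (0.71 and 0.74, at most 0.43 elsewhere, and up to 0.33 between controls). These 4 were split. In the same 2 pairs Tagln (1.57 and 1.55) and Cnn1 (2.18 and 1.69) were higher. Myh11 (-0.15 and -0.19) and Smtn (-0.69 and -0.073) were lower, and Cnn1 was highest in TAC 1 week (2.61). The part of these cell types in the Bdh1 values was not tested.

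Oxct1, the succinyl-CoA transferase that commits ketone bodies to oxidation in extrahepatic tissue, was read above a signal of 5000 on 10 of the 12 arrays. Its procedure signals were 4812, 5454 and 5694 in TAC at 1 day, 1 week and 1 month, 4945 and 6184 in MI at 1 week and 1 month, and 7211 with Ang II. The matching controls were at 6933, 6422, 7255, 6511, 6883 and 7754. All TAC and MI arrays lay below the lowest control (6422), and the Ang II array lay inside the control range. The mean change was -0.29 ± 0.067 (limma adjusted p = 0.0257), and 3 of the 6 ratios exceeded the largest difference between controls, 0.27. The call was lost after quantile normalization, where the mean was -0.16 (adjusted p = 0.177) and the TAC 1 week ratio was 0.044 in place of -0.24. Its 3 dimmer probe sets had mean ratios from -0.36 to -0.33.

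Acat1, the mitochondrial thiolase shared by both pathways, had signals of 3634, 3034 and 3295 in TAC at 1 day, 1 week and 1 month, 3197 and 3611 in MI at 1 week and 1 month, and 4261 with Ang II. Its 6 controls lay in a narrow range from 4224 to 4742. The 5 TAC and MI arrays were therefore all below every control, and the Ang II array was level with its own control (4224). The mean change was -0.34 ± 0.076 (limma adjusted p = 0.0243), and the ratios of the TAC and MI pairs ran from -0.51 to -0.25, against up to 0.11 between controls. The dimmest of its 3 probe sets was lower in all 6 pairs, with a mean ratio of -0.57.

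Bcat2, the mitochondrial transaminase that starts branched-chain amino acid breakdown, was read at low signals, with 1 probe set. Procedure arrays read 94.1, 128 and 127 in TAC at 1 day, 1 week and 1 month, 146 and 100 in MI at 1 week and 1 month, and 143 with Ang II. The controls in the same order read 130, 183, 173, 149, 153 and 88.3. No procedure array lay below all 6 controls, since the Ang II control was the lowest of the 12 arrays. The ratio of 0.69 with Ang II, the only positive one of this gene, thus came with the lowest control, and the Ang II array itself was inside the control range. Controls of the same time differed by up to 1.05, more than any of the 6 ratios.

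The keto acid dehydrogenase complex, the committed step of the path, was lower on every procedure array than on its control. For Bckdha, the E1 alpha subunit that carries the regulatory phosphorylation site, the procedure signals were 702, 546 and 607 in TAC at 1 day, 1 week and 1 month, 647 and 696 in MI at 1 week and 1 month, and 971 with Ang II. The controls were at 1189, 895, 970, 855, 969 and 1209. The 5 TAC and MI arrays lay below all controls, and the mean change was -0.56 ± 0.079 (limma adjusted p = 0.00621). Controls of the same time differed by up to 0.50 for Bckdha, which the 3 TAC ratios exceeded and the MI and Ang II ratios did not.

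Bckdhb, the E1 beta subunit, read 759, 681 and 689 in TAC at 1 day, 1 week and 1 month, 744 and 742 in MI at 1 week and 1 month, and 891 with Ang II. Its controls read between 1027 and 1269, with a median of 1089, and so did not overlap with any procedure array. Bckdhb changed by -0.56 ± 0.074 (limma adjusted p = 0.00470). Each of its 6 ratios was larger in size than the largest difference between controls of the same time, 0.081. The 1 day sham has no other control of its time and is not in that difference. It lay 0.22 above the median of the 5 other controls, and the Ang II ratio was -0.28.

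Dbt, the E2 acyltransferase core, had the lowest ratio of any of the 10 genes, -1.13 in TAC 1 day, where the signal was 311 against 678 in the sham. In the other pairs it was 379 against 557 (TAC 1 week), 390 against 567 (TAC 1 month), 343 against 575 (MI 1 week), 451 against 629 (MI 1 month) and 510 against 598 (Ang II). No procedure array reached the lowest control, 557. The mean change was -0.61 ± 0.11 (limma adjusted p = 0.0124). All 6 ratios exceeded in size the largest difference between controls of the same time, 0.15. The 1 day sham, which is not in that difference, lay 0.24 above the median of the 5 other controls. The Ang II ratio was -0.23.

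The later steps of the valine path were lower as well. Aldh6a1, the methylmalonate semialdehyde dehydrogenase, read 803, 862 and 1018 in TAC at 1 day, 1 week and 1 month, 853 and 1051 in MI at 1 week and 1 month, and 1255 with Ang II, against controls from 1240 to 1590. Only the Ang II array overlapped with the controls. The change of Aldh6a1 was -0.60 ± 0.080 (limma adjusted p = 0.00493). Hibadh, the 3-hydroxyisobutyrate dehydrogenase one step earlier, read 2311, 2177 and 2388 in TAC at 1 day, 1 week and 1 month, 2051 and 2470 in MI at 1 week and 1 month, and 3137 with Ang II, against controls from 2845 to 3603. The change of Hibadh was smaller, -0.38 ± 0.075 (limma adjusted p = 0.0175), and that of its dimmer probe set had a mean of -0.37.

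Mmut, the mutase through which valine and isoleucine carbon reaches succinyl-CoA, read 701, 601 and 599 in TAC at 1 day, 1 week and 1 month, 556 and 693 in MI at 1 week and 1 month, and 1076 with Ang II. Its controls spread more widely than those of the other amino acid genes apart from Bcat2, from 846 in the TAC 1 week sham to 1305 in the Ang II control, a log2 difference of 0.62 at the same time of harvest. The 5 TAC and MI arrays were still below the lowest control. The change was -0.60 ± 0.086 (limma adjusted p = 0.00621). A second probe set of similar signal had a mean ratio of -0.47 with all 6 pairs lower, and the dimmest, at the floor on 5 arrays, gave no usable ratio. With the mean of all probe sets, the dimmest included, Mmut lost its call (-0.35, adjusted p = 0.185).

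Read by pair, all 10 genes were lower in TAC 1 day and in MI 1 week, 9 in TAC 1 week, TAC 1 month and MI 1 month, and 7 with Ang II. With signals as deposited Bcat2 was higher in MI 1 week (0.13), and after quantile normalization Acat1 was lower with Ang II (-0.0092). The array lay below all 6 controls for 9 of the 10 genes in TAC 1 day, where this held for 34.0% of tested genes, and for 9 in MI 1 week, against 25.6%. It did for 8 genes in TAC 1 week, TAC 1 month and MI 1 month, against 21.2%, 18.8% and 19.5% of tested genes. With Ang II it did for Bckdhb and Dbt, 2 of the 10, against 11.9%. The medians of the 10 genes were -0.75 in TAC 1 day, -0.51 in TAC 1 week, -0.49 in TAC 1 month, -0.53 in MI 1 week, -0.48 in MI 1 month and -0.17 with Ang II. With signals as deposited they were -0.29 in TAC 1 week and -0.18 in TAC 1 month, where the medians of all tested genes were 0.21 and 0.31, and with the mean of all probe sets the Ang II median was -0.064. Control arrays of the same time differed by up to 0.15 in this median, so the Ang II value was close to the difference between controls. The medians of all tested genes in the 6 pairs lay between -0.074 and 0.0090.

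The size of the TAC 1 day ratios depended on the 1 day sham for some of the genes. For Bckdhb, Dbt and Hibadh, 3 of the 10 genes, that sham was the highest of all controls. This is near the share of tested genes, 23.6%. Set against the median of the 5 other controls, the TAC 1 day array had a median of -0.52 over the 10 genes in place of -0.75. Bckdha then moved from -0.76 to -0.46 and Mmut from -0.82 to -0.52. The ratios of Dbt (-0.89), Bckdhb (-0.52) and Hibadh (-0.41) also became smaller in size. Those of Bcat2 and Bdh1 became larger, from -0.46 to -0.70 and from -0.90 to -1.06. Oxct1 (-0.52), Acat1 (-0.28) and Aldh6a1 (-0.93) changed little. The TAC 1 day array lay below all 5 other controls for 9 of the 10 genes, Bcat2 being the exception, against 37.1% of tested genes. Its values were deposited with more decimals than those of every other array. The part of this in its ratios was not tested.

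Separate effects were fitted for TAC over 3 pairs, MI over 2 pairs and Ang II over 1 pair, to ask whether the procedures differ. For TAC 6 of the 10 genes fell and 0 rose, against 1.26% and 1.08% of tested genes (limma, adjusted). Dbt changed by -0.74 ± 0.14, Bckdha by -0.72 ± 0.093, Aldh6a1 by -0.69 ± 0.11, Bckdhb by -0.67 ± 0.092, Mmut by -0.65 ± 0.11 and Hibadh by -0.46 ± 0.091 (limma adjusted p from 0.0160 to 0.0469). The count was 0 with signals as deposited, where 0.086% of all tested genes were lower. It was also 0 when any of the TAC or MI pairs at 1 week or 1 month was left out. In these fits 0.0172% to 0.129% of all tested genes were lower, so calls were lost over the whole table.

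For MI 0 of the 10 passed in limma's adjusted test, where 0.155% of tested genes were lower and 0.826% higher, and 8 of the 10 had an unadjusted p under 0.05, against 17.3% of tested genes. The MI values were -0.70 ± 0.14 for Mmut, -0.61 ± 0.18 for Dbt, -0.59 ± 0.13 for Aldh6a1 and -0.55 ± 0.11 for Bckdhb. Without the TAC 1 day pair 7 genes passed for MI, where 6.02% of tested genes were lower and 6.84% higher, and 7 passed with the 6 controls as 1 group, where it was 2.80% and 3.61%. For Ang II 0 of the 10 passed in limma's adjusted test, as did 0 of all tested genes, and at an unadjusted p under 0.05 there was 1 gene, Bcat2, against 2.44% of tested genes. The difference TAC minus MI was tested directly: 0 of the 10 passed in limma's adjusted test, and 0 had an unadjusted p under 0.05 (4.53% of tested genes had), which does not show that the procedures act alike. The differences ran from -0.28 ± 0.15 for Bckdha to 0.21 ± 0.37 for Bdh1.

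The ketone genes were then set beside the amino acid genes. With the brightest probe set of each gene, the median of the 3 ketone genes was above that of the 7 amino acid genes in each of the 6 pairs. In MI 1 week this turned with the probe sets used, to a difference of -0.10 with the mean of all probe sets and -0.038 with the second brightest ones. The ketone medians were -0.53, -0.24 and -0.35 in TAC at 1 day, 1 week and 1 month, -0.51 and -0.15 in MI at 1 week and 1 month, and 0.013 with Ang II. The amino acid medians in the same order were -0.76, -0.52, -0.59, -0.55, -0.54 and -0.28. The difference between them ran from 0.038 in MI 1 week to 0.38 in MI 1 month. Between control arrays the ketone median stood up to 0.30 above that of the amino acid genes, a size that the MI 1 month difference exceeded and the other 5 did not. Which pairs exceeded it depended on the processing. After quantile normalization TAC 1 week (0.60) and TAC 1 month (0.49) did so too. With the second brightest probe sets controls differed by up to 0.11. TAC 1 week (0.18), TAC 1 month (0.34), MI 1 month (0.19) and Ang II (0.25) exceeded this. TAC 1 day (0.078) and MI 1 week (-0.038) did not. With the mean of all probe sets controls differed by up to 0.077. TAC 1 day was at 0.10, TAC 1 week and Ang II at 0.18, TAC 1 month at 0.34 and MI 1 month at 0.33. All of these exceeded the control difference. MI 1 week, at -0.10, exceeded it in size in the opposite direction. Without Acat1, which serves both pathways, the difference was 0.045 in TAC 1 day and -0.12 in MI 1 week, and between 0.31 and 0.49 in the other 4 pairs, against up to 0.16 between controls. The ranges of the 2 sets of genes overlapped in each of the 6 pairs.

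**Figure D3:**
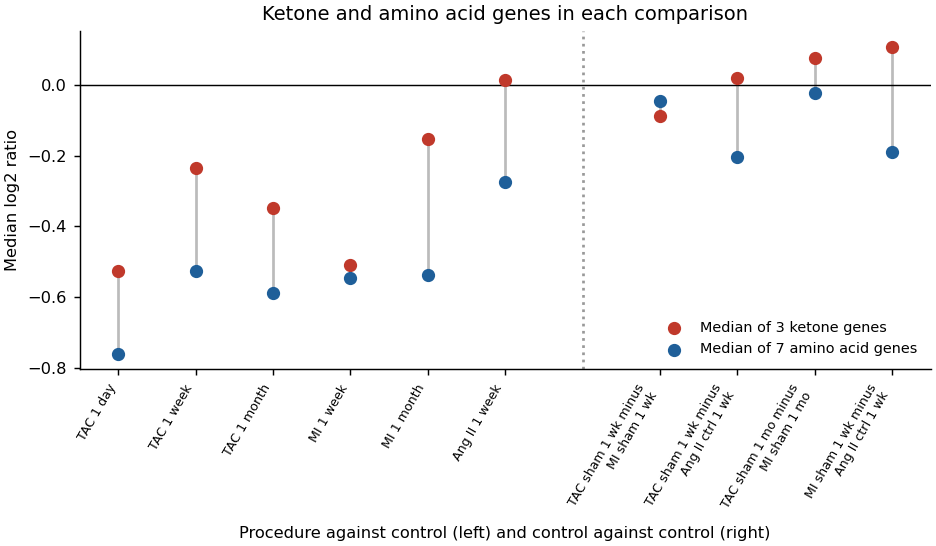
Median log2 ratio (y axis) of the 3 ketone genes (red) and the 7 amino acid genes (blue) in the 6 procedure-control pairs (left of the dotted line) and in 4 comparisons of control arrays of the same time (right). Each gene is read from its brightest probe set; ketone medians lie above amino acid medians in all 6 pairs, by 0.038 to 0.38, and by up to 0.30 between controls, but MI 1 week turns to -0.10 with the mean of all probe sets and -0.038 with the second brightest.

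Other genes of both pathways were read from lists of 10 ketone and 26 amino acid genes. Of the ketone list 7 were read and 5 tested, with Bdh2 and Oxct2a too dim, and 2 fell and 0 rose in limma's paired fit (median -0.27). Both are of uptake: Slc16a1, the monocarboxylate transporter that carries ketone bodies and lactate, at -0.31 ± 0.084 (adjusted p = 0.0450), and Bsg, its chaperone at the plasma membrane, at -0.27 ± 0.062 (adjusted p = 0.0265). These 2 were named after their values were seen. Of the amino acid list 24 were tested, with Bcat1 and Slc7a8 too dim, and 12 fell and 1 rose (median -0.38), against 5.70% and 5.16% of all tested genes.

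Of these, Ppm1k, the phosphatase that activates the keto acid dehydrogenase, changed most in this direction, by -0.80 ± 0.14 (limma adjusted p = 0.0106). Its signal was 404 in TAC 1 day against 1213, 654 in TAC 1 week against 1112, 673 in TAC 1 month against 1264, 679 in MI 1 week against 1056, 837 in MI 1 month against 1111 and 797 with Ang II against 1116. No procedure array reached the lowest of the controls, 1056. Bckdk, the opposing kinase, was at -0.24 ± 0.081 without passing (adjusted p = 0.0805), and was named after its value was seen. Ivd, the isovaleryl-CoA dehydrogenase of leucine breakdown, changed by -0.49 ± 0.084 (adjusted p = 0.0112), and Auh, a hydratase further along that path, by -0.48 ± 0.091 (adjusted p = 0.0152).

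The gene that rose was Slc7a5, the plasma membrane transporter of large neutral amino acids. It changed by 1.20 ± 0.33 (limma adjusted p = 0.0476). Its signal was 84.8 in TAC 1 day against 27.3, 61.9 in TAC 1 week against 34.1, 48.9 in TAC 1 month against 32.9, 35.7 in MI 1 week against 10.4, 43.3 in MI 1 month against 7.48 and 24.1 with Ang II against 27.6. All signals were low, and the largest ratios, those of MI, came with the lowest controls. Slc3a2, its heavy chain partner, was at 0.32 ± 0.13 without passing (adjusted p = 0.135), and was named after its value was seen.

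**Figure D4:**
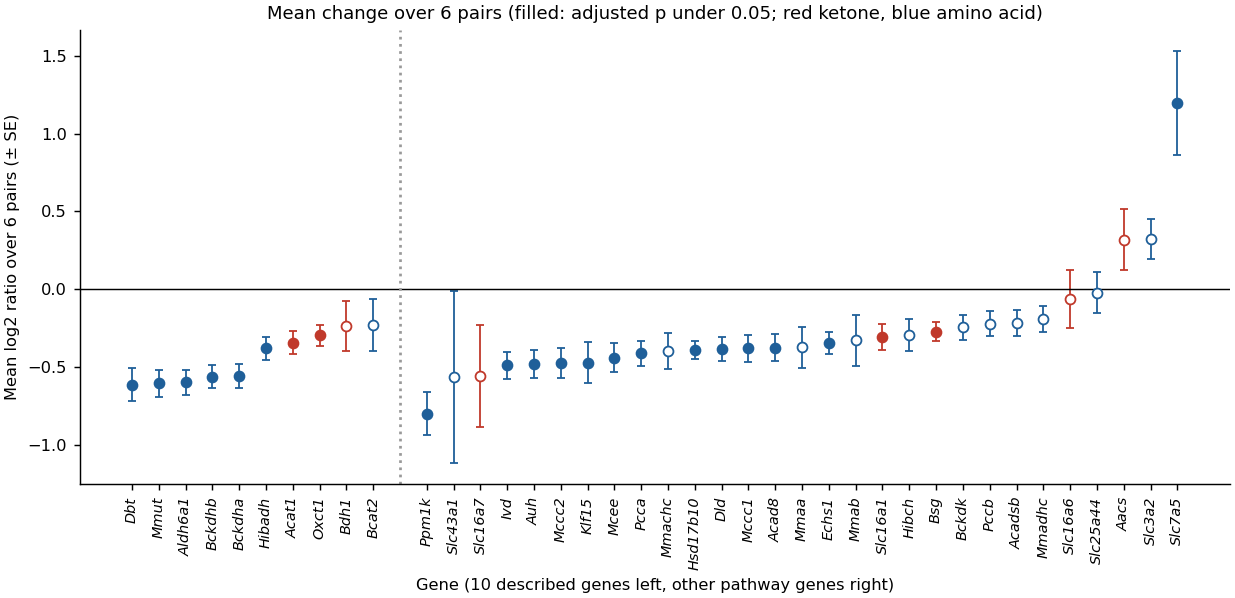
Mean log2 ratio over the 6 pairs (y axis) with the SE of limma's fit (bars) for the 10 genes (left of the dotted line) and the other tested genes of both pathways (right); red marks ketone and blue amino acid genes, and filled points passed an adjusted p under 0.05. The 8 filled points on the left lie between -0.61 and -0.29, and Slc7a5 at 1.20 is the filled point above 0.

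Neighbouring pathways of mitochondrial fuel use were lower over the same arrays. In the fatty acid oxidation list 16 of 18 tested genes fell and 0 rose, with a median of -0.40. In the TCA cycle list it was 17 of 19 (median -0.27) and in the oxidative phosphorylation list 14 of 19 (median -0.24), with 0 higher in both. The 7 amino acid genes had a median of -0.56 and the 3 ketone genes of -0.29, and no test of a difference between lists was made. The 5 tested genes outside both pathways whose pair ratios lay nearest to the median of the 10 genes were Fahd1, a mitochondrial decarboxylase, Gsta4, a glutathione transferase, Gid4, a subunit of a ubiquitin ligase, Acads, the short-chain acyl-CoA dehydrogenase, and Acacb, an acetyl-CoA carboxylase. Their root mean square distances over the 6 pairs were 0.068 to 0.086 on the log2 scale, while those of the 10 genes themselves ran from 0.096 for Bckdhb to 0.47 for Bdh1.

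Markers of cell types were read on the same arrays. Of 11 fibroblast markers, all measured, 7 rose and 0 fell (limma, adjusted), and their summed signal ran from 20902 to 25702 in controls and from 23002 to 50211 in procedure arrays. The fibroblast medians were 0.26, 0.88, 0.60, 0.96, 0.69 and 0.55 in the order of the pairs, from TAC 1 day to Ang II. Of 14 cardiomyocyte markers, all measured, 3 fell and 0 rose, and their summed signal ran from 131343 to 143577 in controls and from 112073 to 138791 in procedure arrays. The medians of the cardiomyocyte markers were -0.045, -0.26, -0.26, -0.22, -0.13 and -0.019 in the order of the pairs above, from TAC 1 day to Ang II. After subtraction of that median in each pair, the 3 dehydrogenase complex genes, Mmut, Aldh6a1 and Hibadh were lower in 6 of 6 pairs, with means from -0.46 to -0.22. Oxct1 was then at a mean of -0.14 and Acat1 at -0.19, each lower in 5 of 6 pairs. The part of cell composition in these results was not tested.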

How the data were processed

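The authors deposited 1 linear intensity per probe set and array, 45101 probe sets on 12 arrays. GCOS is named in the submitters' processing notes. Its version, how it formed the signal and whether the arrays were scaled are not stated. The TAC 1 day array was deposited with up to 6 decimals and every other array with 1. Whether that array was processed in another way is not known. Labelled cRNA was made from 5 µg of total RNA, per the labels. Trimmed means (2% at each end) ran from 105 to 131, so signals were scaled to a common trimmed mean, raised to a floor at the 20th percentile (4.54) and taken as log2. Probe sets with 1 gene symbol in the platform annotation (34958) were used, the brightest per gene, and genes with a mean above the 40th percentile (18.1) were tested. limma 3.58.1 (R 4.3.3) was used for all models, with the pair as a block (pairs come from the sample titles) and an intensity trend, leaving 5 residual degrees of freedom for the mean of 6 pairs and 3 for separate effects of TAC, MI and Ang II. The single Ang II pair borrows its spread from the other pairs. Real differences between procedures and times count as residual here. Differences between controls were taken between arrays of the same time, so the 1 day sham, alone at its time, is in none of them. The script was tested on simulated data. The number of arrays limits the precision.

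The members and gene lists were chosen with earlier results of these data known. Named beside the 10 genes are the 4 largest changes past the threshold among other pathway genes, any in the opposite direction, and the 5 genes nearest to the median of the 10 by root mean square distance. Other lists were markers of cardiomyocytes, fibroblasts and macrophages, and of endothelium (median -0.012, 0 of 7 called), smooth muscle (0.37, 2 of 4 called higher), neutrophils (1.31, 0 of 2), adipocytes (0.40, 0 of 2) and skeletal muscle (0.25, 0 of 1). Alternatives were other scaling, floors, probe sets, filters, variance settings and leaving out each pair. The second brightest probe set of each member was added as an alternative after seeing the data. Listed genes that were not read are not analysed here.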

Additional observations from a re-analysis of the deposited data

Results flagged for a closer look

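The log2 ratios of the brightest Bdh1 probe set had opposite signs at different times of the same procedure. In TAC the log2 ratio was -0.90 at 1 day, 0.17 at 1 week and 0.028 at 1 month. After MI it was -0.93 at 1 week and 0.038 at 1 month. Each value is 1 array against 1 control, so the difference between times was not tested. The positive values are inside the largest difference between controls of the same time, 0.19, and the negative values are outside it. The dimmer probe set had -1.41, -0.030 and 0.16 in TAC at 1 day, 1 week and 1 month and -1.23 and -0.16 in MI at 1 week and 1 month, so the sign differed on both probe sets only between TAC 1 day and TAC 1 month.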

How the results depend on the processing

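Of the alternatives to the 8 genes lower over the 6 pairs, signals as deposited left 5 and no intensity trend left 4, where 0.929% and 0.585% of all tested genes were lower in place of 5.70%. No filter on dim genes and no variance moderation left 0, with 0 of all tested genes lower in both. Leaving out 1 pair gave 5 to 8, with 87 to 806 of all tested genes lower. The fit with no replicate block called 7, without Oxct1, and 1.95% of all tested genes lower. The 6 genes lower in TAC became 3 with the mean of all probe sets, where 0.371% of all tested genes were lower in place of 1.26%. They became 0 with signals as deposited (0.086% of all tested genes), and with no filter on dim genes and no intensity trend (0% in both). Leaving out 1 pair gave 0 to 7, with 0.0172% to 2.89% of all tested genes lower. The 0 for MI became 7 with no replicate block, where 2.80% of all tested genes were lower. It became 1 (Acat1) with the second brightest probe sets, where 0.163% were lower. Leaving out 1 pair gave 0 to 7, with 0% to 6.02% of all tested genes lower. No alternative called a member for Ang II or for TAC minus MI, or any member higher. With signals as deposited the medians of all tested genes were -0.23, 0.21 and 0.31 in TAC at 1 day, 1 week and 1 month and 0.16 in MI at 1 week, and those of the 10 genes -0.91, -0.29, -0.18 and -0.37. The ketone minus amino acid difference was 0.49 in TAC 1 month and 0.60 in TAC 1 week after quantile normalization, 0.49 in TAC 1 week without Acat1, and 0.19 in MI 1 month with the second brightest probe sets. The cause of these changes was not tested. Of the 10 mean changes, 0 changed sign under any alternative. With 1 array a group, signal over background cannot be judged within a group, and Bcat2 and Slc7a5 were read at low signals.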
